A study of Mus musculus with 4 samples.

Results

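The tumour necrosis factor (TNF) superfamily is a set of ligands, mostly membrane proteins that act as trimers, and of the receptors that bind them. The genes examined here were the RefSeq protein-coding genes whose symbols start with Tnfsf or Tnfrsf, together with Tnf, Lta, Ltb, Ltbr, Fas, Fasl, Cd27, Cd70, Cd40lg and Ngfr. Tnfrsf13b, Tnfrsf13c, Tnfrsf17 and Tnfsf13b also start this way but were left out by name. This gave 38 genes of 21883 protein-coding genes on chromosomes 1 to 19, X and Y, of which 17 encode ligands and 21 encode receptors. The choice used symbols alone and no measured value.

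The measurement was H3K27me3, the histone mark laid down by Polycomb repressive complex 2 over silenced genes, read by CUT&Tag: a transposase tethered to an antibody cuts the DNA beside the mark, and the fragments are sequenced. There were 4 libraries of germinal center B cells from spleens of C57BL/6 mice, 2 labelled WT and 2 labelled KO, the latter named Kdm6b B KO in the series text. All mice received sheep red blood cells, were challenged again on day 5 and were killed on day 12. Kdm6b is a demethylase that removes this mark, and KO against WT asks how its loss bears on the mark. The cells are called pre-plasma in the series text, and the sort markers, the Cre driver, the deleted exons, and the age and sex of the mice were not among the details at hand. The libraries are called KO1, KO2, WT1 and WT2, with numbers in accession order that only name them. A peak map does not show which exons were removed, so it does not check the genotype.

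The libraries differed in how much genome their peaks covered, which moves with many values below. Values from lists of equal covered length, and from a fit with covered length as a covariate, are given further on. Peaks of KO1 spanned 144 Mb, those of KO2 236 Mb, those of WT1 213 Mb and those of WT2 101 Mb, from 80639 to 90417 peaks per library. The genotypes, at 190 ± 65.0 Mb for KO and 157 ± 78.6 Mb for WT (SD, n = 2), overlapped (exact two-sided permutation p = 0.667, where the smallest possible p is 0.333). Read depth was unknown. The germinal center genes Bcl6, Mef2b and S1pr2 were marked in no library. Of 8 B cell markers 1, 3, 0 and 0 were marked in KO1, KO2, WT1 and WT2. Of 11 T cell markers, 7, 10, 10 and 8 were marked in the same order. Of 5 plasma cell markers, 2, 4, 2 and 2 were marked in that order. Prdm1 and Sdc1 were marked in every library and Jchain in none. The shares over all genes were 33.5%, 46.3%, 40.8% and 26.3%.

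TNF superfamily ligands reach neighbouring cells as membrane proteins or after shedding. Receptors with a death domain can recruit caspase-activating complexes, whereas most others bind TRAF adaptors and switch on NF-κB. In the germinal center, Fas is a defining surface protein of the B cells, and CD40 ligand, CD27, CD70, OX40 and lymphotoxin take part in the exchange between B cells, T cells and stromal cells. H3K27me3 over a gene's start is a common feature of genes that a cell type keeps silent. No RNA was measured here, so the maps say where the mark lay and not how strongly a gene was expressed.

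Each gene was described by the share of its body covered by peaks and by the share of a 4000 bp window, 2000 bp to each side of a gene end. The window reported is at the end with the higher mean share over all 4 libraries, called the gene end below, and a gene is called marked where at least 25% of it was covered. For 29 of the 38 genes RefSeq's strand was in hand, and for 23 of these the gene end was the start of the gene. At Fasl, Tnfrsf4, Tnfrsf8, Tnfrsf23, Tnf and Lta it was the far end. The values that lay closest to the threshold were 26.45% at Fasl in WT1 and 25.9% at Tnfrsf23 in WT2, just inside it, and 21.9% at Tnfrsf22 in KO2, just outside.

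The promoters of 5 members show the sequence under the widest and the emptiest windows. They are 300 bases of RefSeq sequence on GRCm38.p6, the assembly mm10 denotes, from 250 bases before to 50 after the start the promoter table uses, read 5′ to 3′ on the gene's strand, with every CpG in capitals. CpG density is shown because CpG-rich promoters are frequent sites of Polycomb binding. The first 3 belong to genes whose window was covered to 100% in all 4 libraries: Ngfr (chr11:95587649-95587948, minus strand), Tnfrsf1a (chr6:125349473-125349772, plus strand) and Tnfrsf25 (chr4:152115684-152115983, plus strand). Tnfsf4 is the fourth such gene. For Tnfrsf25 the start used for the promoter lies 406 bp inside the gene as drawn here, and for the other 4 both starts are the same. The other 2 had no coverage at either gene end in any library and the highest CpG ratio among such members, Tnfrsf8 (chr4:145315115-145315414, minus strand) and Tnf (chr17:35201958-35202257, minus strand).
Ngfr: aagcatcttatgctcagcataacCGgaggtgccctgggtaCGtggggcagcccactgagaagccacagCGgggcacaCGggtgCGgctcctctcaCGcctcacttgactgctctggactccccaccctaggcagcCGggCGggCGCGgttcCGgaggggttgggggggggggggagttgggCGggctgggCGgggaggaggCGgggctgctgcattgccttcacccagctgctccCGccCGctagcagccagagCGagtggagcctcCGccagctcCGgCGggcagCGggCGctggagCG
Tnfrsf1a: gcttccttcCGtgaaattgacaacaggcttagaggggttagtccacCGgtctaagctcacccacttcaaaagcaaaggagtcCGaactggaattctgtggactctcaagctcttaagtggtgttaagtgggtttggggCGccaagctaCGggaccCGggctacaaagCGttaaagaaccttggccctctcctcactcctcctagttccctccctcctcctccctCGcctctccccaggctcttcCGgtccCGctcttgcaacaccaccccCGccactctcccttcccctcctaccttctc
Tnfrsf25: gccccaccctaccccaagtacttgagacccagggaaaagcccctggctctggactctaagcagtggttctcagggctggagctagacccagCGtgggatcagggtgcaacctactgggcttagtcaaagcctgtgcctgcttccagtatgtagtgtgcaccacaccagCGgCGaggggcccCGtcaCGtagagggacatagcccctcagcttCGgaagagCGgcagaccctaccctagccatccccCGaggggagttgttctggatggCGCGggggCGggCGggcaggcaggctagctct
Tnfrsf8: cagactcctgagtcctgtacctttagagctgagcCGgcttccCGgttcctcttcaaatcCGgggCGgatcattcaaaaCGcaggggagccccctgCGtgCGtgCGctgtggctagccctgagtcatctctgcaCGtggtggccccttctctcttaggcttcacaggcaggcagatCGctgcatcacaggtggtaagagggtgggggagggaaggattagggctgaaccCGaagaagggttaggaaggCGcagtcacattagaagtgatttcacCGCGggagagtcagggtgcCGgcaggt
Tnf: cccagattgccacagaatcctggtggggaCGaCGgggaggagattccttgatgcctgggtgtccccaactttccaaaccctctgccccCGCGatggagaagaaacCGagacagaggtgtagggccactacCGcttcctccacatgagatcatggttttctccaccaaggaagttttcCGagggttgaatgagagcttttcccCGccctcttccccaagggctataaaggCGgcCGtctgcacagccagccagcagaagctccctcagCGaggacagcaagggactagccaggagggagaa
These sequences held 23 CpG in Ngfr, 11 in Tnfrsf1a, 12 in Tnfrsf25, 15 in Tnfrsf8 and 11 in Tnf. The ratio of observed to expected CpG, that is the CpG count times the length divided by the product of the C and G counts, was 0.607, 0.495, 0.399, 0.579 and 0.436. The 3 fully covered promoters and the 2 uncovered ones therefore overlapped in this ratio. Over all 29 members with a promoter sequence, the median ratio was 0.495 for the 13 whose start was marked in all 4 libraries, 0.303 for the 9 marked in 1 to 3 libraries and 0.436 for the 7 marked in none. The same medians over 17491 genes were 0.645, 0.660 and 0.447. These are descriptions with no test. The highest member was Tnfrsf11a at 0.976, marked in every library, and the lowest was Tnfrsf14 at 0.113, marked in none. Between them, Tnfsf15 at 0.180 was marked in every library and Tnfrsf8 at 0.579 in none.

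H3K27me3 lay over the ends of more than 40% of the family in every library, and 16 of the 38 genes were marked in all 4. Marked members numbered 20, 25, 24 and 17 in KO1, KO2, WT1 and WT2, or 52.6%, 65.8%, 63.2% and 44.7%. The same shares over all protein-coding genes were 33.5%, 46.3%, 40.8% and 26.3%. The 16 genes marked in every library were 42.1% of the members, against 24.1% of all genes. At the other extreme, 12 members (31.6%) were marked in none, against 49.1% of all genes, and 26 in at least 1, against 50.9%. Between these, 3 members were marked in 1 library (7.89%, against 11.2%), 2 in 2 libraries (5.26%, against 7.63%) and 5 in 3 libraries (13.2%, against 8.0%). The order of the libraries followed covered length, as it did for all genes. No set test was run, and neighbouring members can share a peak, so these shares describe the family and do not set it apart.

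**Figure D1:**
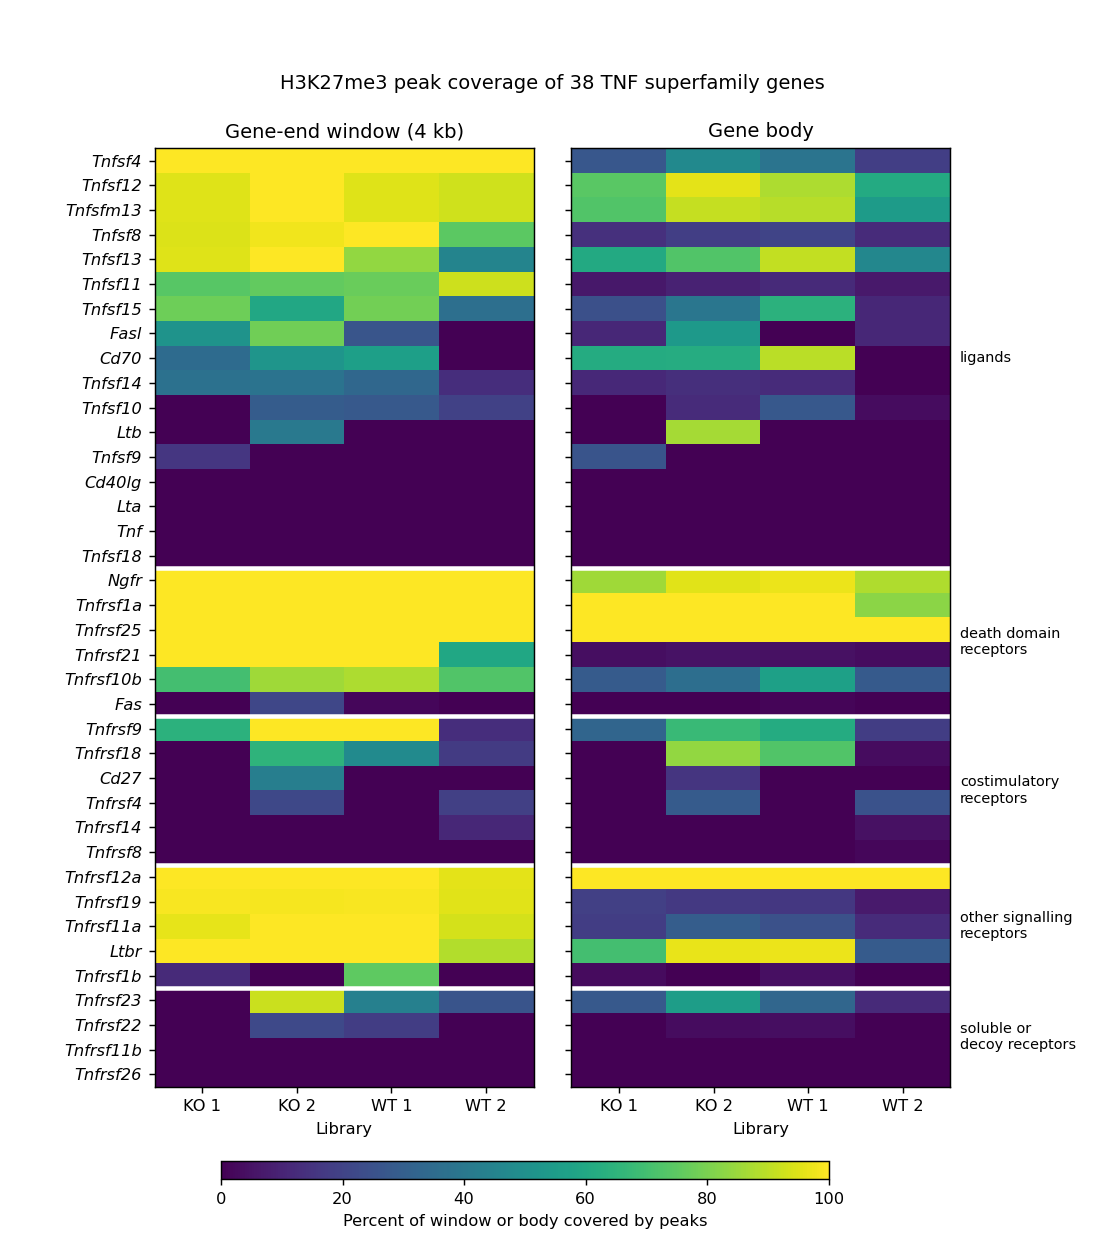
Percent of the gene-end window (left) and of the gene body (right) covered by H3K27me3 peaks for the 38 genes (rows, grouped by role and ordered by mean) in each library (columns: KO1, KO2, WT1, WT2). The death domain receptors other than Fas and the genes Tnfrsf12a, Tnfrsf19, Tnfrsf11a and Ltbr are at 59.65% or more in every library in the left panel, while Tnf, Lta, Cd40lg and Tnfsf18 are at 0% in both panels.

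Among death domain receptors, 5 of 6 were marked in every library, against 24.1% of all genes. The germinal center receptor Fas was the exception. Tnfrsf1a encodes TNFR1, the main receptor for soluble TNF. It lies on chromosome 6 at 125349723 to 125362483, and its gene end was covered to 100% in each library. Its whole body was covered to 100% in both KO libraries and WT1 and to 82.8% in WT2. A single peak of 22352, 51794 and 35755 bp met the gene in KO1, KO2 and WT1, and 4 peaks met it in WT2. Thus the gene stayed covered in the narrowest list, in shorter pieces.

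Tnfrsf25, the receptor DR3 on chromosome 4 at 152115528 to 152120119, was covered throughout. Both ends and the whole body were covered to 100% in all 4 libraries, by 1 peak of 22542 to 27630 bp, against a gene of 4592 bp. It was the only member with a fully covered other end in every library (2.63%, against 0.242%), and with Tnfrsf12a 1 of 2 with a fully covered body (5.26%, against 0.868%). The highest signal there ranked above 99.9% of peaks in each list. Ngfr, the low-affinity neurotrophin receptor on chromosome 11, had 100% at its gene end in each library and 85.9%, 95.7%, 97.1% and 87.9% of its body in KO1, KO2, WT1 and WT2. Of the 38 genes, 4 had a gene end covered to 100% in all 4 libraries, these 3 and Tnfsf4, or 10.5% against 2.81% of all genes.

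In the remaining marked death receptors the mark did not reach the other end. Tnfrsf21, which encodes DR6, had 100%, 100%, 100% and 59.7% at its gene end in KO1, KO2, WT1 and WT2, but 3.4% to 4.7% of its 72634 bp body and 0% of its other end were covered. Tnfrsf10b, the mouse receptor for TRAIL, had 70.2%, 85.8%, 87.5% and 73.0% at the gene end and 0% at its other end. The 2 genotypes overlapped at both genes.

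Fas, on chromosome 19 at 34290647 to 34327775, carried almost none of the mark. Its gene end, which is the start, had 0%, 21.2%, 1.9% and 0% in KO1, KO2, WT1 and WT2. The body was covered to at most 1.5%. Both KO2 and WT1, the broadest lists, held 1 peak at the locus, of 846 and 570 bp, and the other libraries held none.

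Most of the remaining signalling receptors outside the costimulatory group were also marked throughout, 4 of 5 against 24.1% of all genes. Ltbr, the lymphotoxin β receptor of stromal and myeloid cells, had 100%, 100%, 100% and 88.6% at its start in KO1, KO2, WT1 and WT2. Over the body it had 70.2%, 96.6%, 97.1% and 28.8%, with the broadest lists, KO2 and WT1, the highest. Tnfrsf12a, the TWEAK receptor Fn14, had 100% in 3 libraries and 96.0% in WT2, and its 2005 bp body was fully covered in all 4. Tnfrsf19, the receptor TROY known from neural and epithelial tissue, had 95.6% to 99.2%, and Tnfrsf11a, the receptor RANK of osteoclast precursors, had 93.5% to 100%.

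In Tnfrsf19 and Tnfrsf11a the mark stopped short of the far end. Tnfrsf19 had 0% at its other end in every library and 7.4% to 18.8% over its 83022 bp body. Tnfrsf11a had 18.0% at its other end in KO1 and 0% elsewhere. Tnfrsf1b, which encodes TNFR2, a receptor of activated lymphocytes, was the exception in this group. It had 12.1%, 0%, 75.2% and 0% in KO1, KO2, WT1 and WT2, so a single library marked it.

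**Figure D2:**
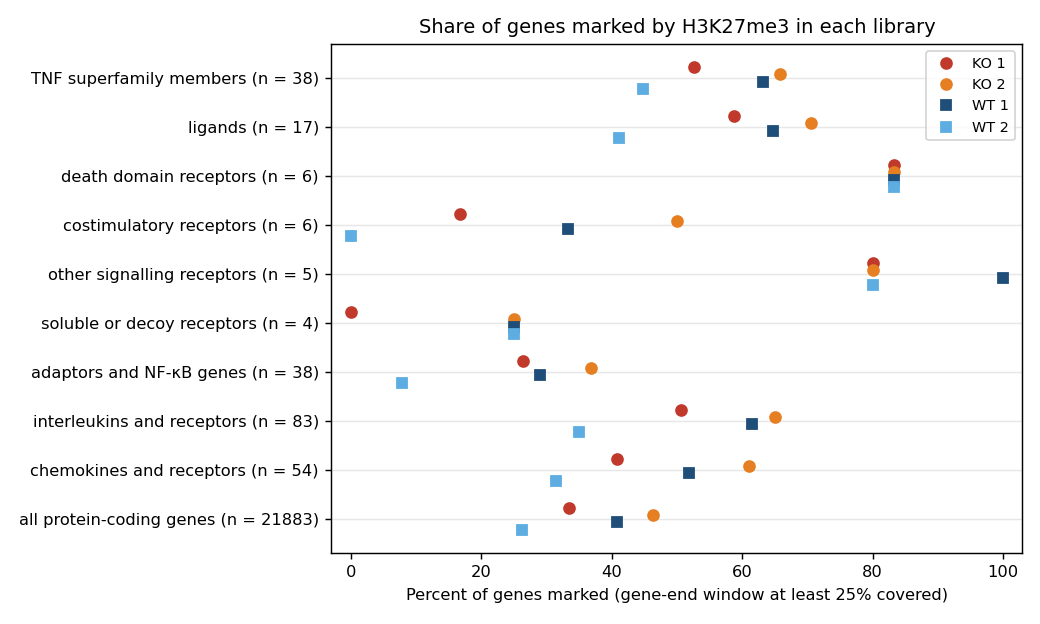
Share of genes marked (horizontal axis, percent of genes whose gene-end window was at least 25% covered) in each library (circles KO, squares WT) for the family, its role groups, adaptor and NF-κB genes, 2 other cytokine families and all genes. Death domain receptors stand at 83.3% in all 4 libraries, and costimulatory receptors between 0% and 50%.

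Costimulatory receptors of lymphocytes, which raise the response of T and B cells to antigen, included no gene marked in all 4 libraries. Of the 6 genes, 1, 3, 2 and 0 were marked in KO1, KO2, WT1 and WT2, or 16.7%, 50%, 33.3% and 0%, against 33.5%, 46.3%, 40.8% and 26.3% of all genes. Tnfrsf9, the receptor 4-1BB, had the most coverage, with 64.4% and 100% in KO and 100% and 13.0% in WT. Tnfrsf18, the receptor GITR, had 0% and 65.0% in KO and 47.7% and 17.3% in WT. In both genes the high values belonged to the broadest lists, and the genotypes overlapped.

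Cd27, on chromosome 6 at 125232620 to 125237136, encodes a receptor carried by T cells. It had 42.8% in KO2 and 0% in the other 3 libraries. Cd27 and Ltb were the members marked in KO2 alone (5.26%, against 7.35% of all genes). Tnfrsf4, which encodes OX40 of activated T cells, had 0% and 21.6% in KO and 0% and 18.9% in WT. Tnfrsf14, which encodes the receptor HVEM of resting lymphocytes, had 11.2% in WT2 and 0% elsewhere. Tnfrsf8, the receptor CD30, had no coverage at either end. For these 4 genes at most 1 library passed the marking threshold.

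Of the soluble or decoy receptors and Tnfrsf26, which sits beside them, 2 of 4 had no coverage at the gene end, against 36.7% of all genes. Tnfrsf11b, which encodes osteoprotegerin, the soluble decoy for RANK ligand, and Tnfrsf26 had 0% over body and ends in all 4 libraries. Tnfrsf23 had 0% and 92.1% in KO and 43.5% and 25.9% in WT, and Tnfrsf22 had 0%, 21.9%, 18.4% and 0% in KO1, KO2, WT1 and WT2. By RefSeq's strand the Tnfrsf23 window lies at its far end. At its start Tnfrsf23 had 29.2% and 57.7% in KO and 39.4% and 18.5% in WT. Tnfrsf22, Tnfrsf23 and Tnfrsf26 are close copies of each other on chromosome 7, so reads there may be split between them and the values are uncertain.

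Of the 17 ligand genes, 7 were marked in every library and 5 in none, against 24.1% and 49.1% of all genes. Tnfsf4, which encodes OX40 ligand of antigen-presenting cells, lies on chromosome 1 at 161395438 to 161418206. Its gene end was covered to 100% in each library, and its body to 26.96%, 47.5%, 38.4% and 18.4% in KO1, KO2, WT1 and WT2. Tnfsf8, which encodes CD30 ligand, had 94.8%, 97.7%, 100% and 74.9% in the same order, and Tnfsf15, the ligand of DR3 made by endothelial and myeloid cells, had 78.0%, 59.8%, 78.8% and 36.7%. Tnfsf11, which encodes RANK ligand, had 74.0%, 76.1%, 77.2% and 92.4% and was the only ligand whose value in WT2, the narrowest list, exceeded all others.

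Tnfsf12, which encodes TWEAK, Tnfsf13, which encodes APRIL, a survival factor for plasma cells, and Tnfsfm13, a joint transcript of that pair, overlap on chromosome 11 at 69682577 to 69696098. Tnfsf12 had 95.0% and 100% in KO and 95.0% and 92.7% in WT, and Tnfsf13 had 95.3% and 100% in KO and 83.8% and 45.3% in WT. Peaks span more than 1 of them, so the 3 gene models are not separate observations. Tnfsf12 was also 1 of 5 members, with Ngfr, Tnfrsf12a, Tnfrsf1a and Tnfrsf25, whose ends were both marked in all libraries (13.2%, against 6.72% of all genes).

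The 5 ligand genes marked in no library were Tnf, Lta, Cd40lg, Tnfsf18 and Tnfsf9. Tnf, the cytokine that names the family, lies at 35199367 to 35202007 on chromosome 17, and Lta, which encodes lymphotoxin α, at 35203165 to 35205578. Neither had coverage over the body or either end in any library. Their neighbour Ltb, which encodes lymphotoxin β, a product of B cells, had a single peak of 1624 bp in KO2 that covered 86.6% of its body and 40.6% of its gene end. Cd40lg on chromosome X, which encodes CD40 ligand of helper T cells, and Tnfsf18, which encodes the ligand of GITR, were at 0% throughout. Tnfsf9, which encodes 4-1BB ligand, had 16.0% in KO1 and 0% elsewhere. Cd40lg was bare although 7 of 11 T cell markers, Cd3e and Cd4 among them, were marked in every library, against 24.1% of all genes.

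In all, 7 members had no coverage at the gene end in any library (18.4%, against 36.7% of all genes). These were Cd40lg, Lta, Tnf, Tnfrsf11b, Tnfrsf26, Tnfrsf8 and Tnfsf18. The body had none at 6 of these, all but Tnfrsf8 (15.8%, against 36.9%). The other end had none at 17 members (44.7%, against 68.3%). It was marked at 9, 14, 15 and 6 members in KO1, KO2, WT1 and WT2, or 23.7%, 36.8%, 39.5% and 15.8%, against 11.7%, 19.8%, 16.9% and 8.36% of all genes.

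The other 5 ligand genes were marked in some libraries only, Ltb among them. Fasl, which encodes the death ligand of cytotoxic T and NK cells, had 51.2% and 78.3% in KO and 26.45% and 0% in WT. Cd70, the ligand of CD27 on activated B and T cells, had 35.0% and 52.2% in KO and 56.6% and 0% in WT. Tnfsf14, which encodes LIGHT, had 37.2% and 38.3% in KO and 33.4% and 13.1% in WT. Tnfsf10, which encodes TRAIL, had 0% and 29.1% in KO and 28.1% and 19.5% in WT. For Fasl, Cd70, Tnfsf14 and the receptor gene Tnfrsf9, WT2 was the only unmarked library, a pattern seen at 10.5% of members and 6.50% of all genes.

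Ligands and receptors that bind each other were set side by side in 14 pairs. Both genes were marked in all 4 libraries in 3 pairs, Tnfsf11 with Tnfrsf11a, Tnfsf12 with Tnfrsf12a and Tnfsf15 with Tnfrsf25. The receptor alone was marked throughout in 3 pairs, Tnf with Tnfrsf1a, Ltb with Ltbr and Tnfsf10 with Tnfrsf10b. The ligand alone was in 2, Tnfsf4 with Tnfrsf4 and Tnfsf8 with Tnfrsf8, and neither was in the other 6. Taken singly, 7 of 17 ligand genes and 9 of 21 receptor genes were marked in all 4 libraries, against 24.1% of all genes. Whether partners are marked together more often than these shares give was not tested. The widest gap was that of Tnf and Tnfrsf1a, with mean shares over the 4 libraries of 0% and 100%.

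**Figure D3:**
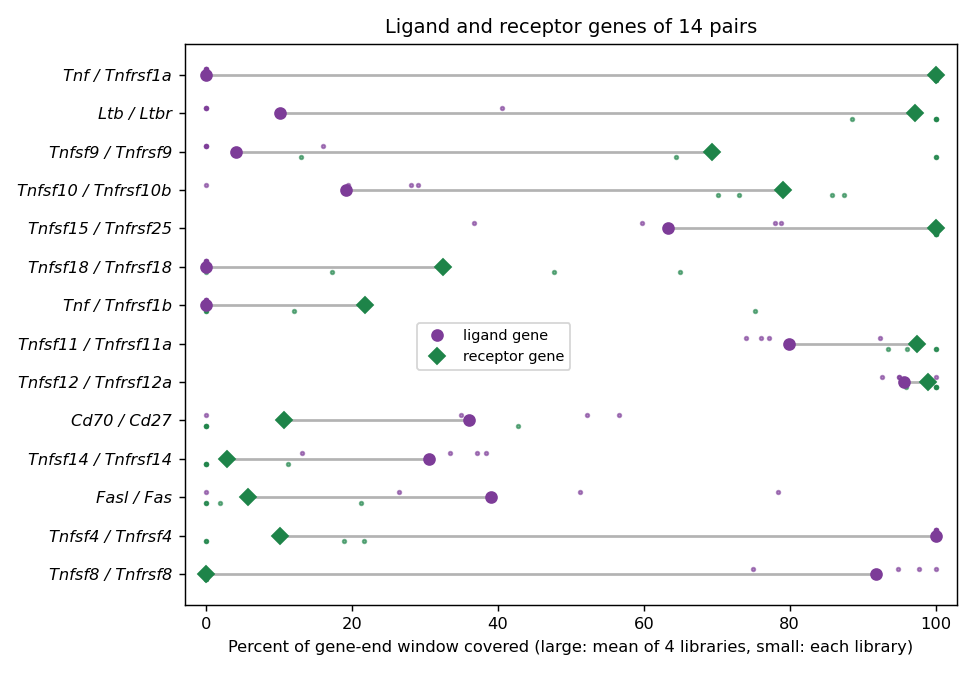
Percent of the gene-end window covered (horizontal axis) for the ligand gene (circles) and the receptor gene (diamonds) of 14 binding pairs, with large symbols for the mean of the 4 libraries and small points for each library. Tnf and Ltb have means of 0% and 10.2% opposite Tnfrsf1a and Ltbr at 100% and 97.1%, while Tnfsf4 and Tnfsf8 lie above 90% opposite receptors near 0% to 10%.

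Family members lie in 9 groups of neighbours within 100 kb, which hold 23 of the 38 genes. Marking differed within some of these groups. Tnfsf15 and Tnfsf8 were both marked in all 4 libraries, as were Tnfsfm13, Tnfsf13 and Tnfsf12. Cd27, Ltbr and Tnfrsf1a lie within 130 kb on chromosome 6. Ltbr and Tnfrsf1a were marked in all 4 libraries, whereas Cd27 at the other edge was marked in 1. On chromosome 4, Tnfrsf1b and Tnfrsf8 lie next to each other with 1 and 0 libraries marked. On chromosome 1, Tnfsf4 was marked in 4 libraries, and its neighbour Tnfsf18 had no coverage at all. A single peak met 2 members in no group other than Tnfsfm13, Tnfsf13 and Tnfsf12.

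**Figure D4:**
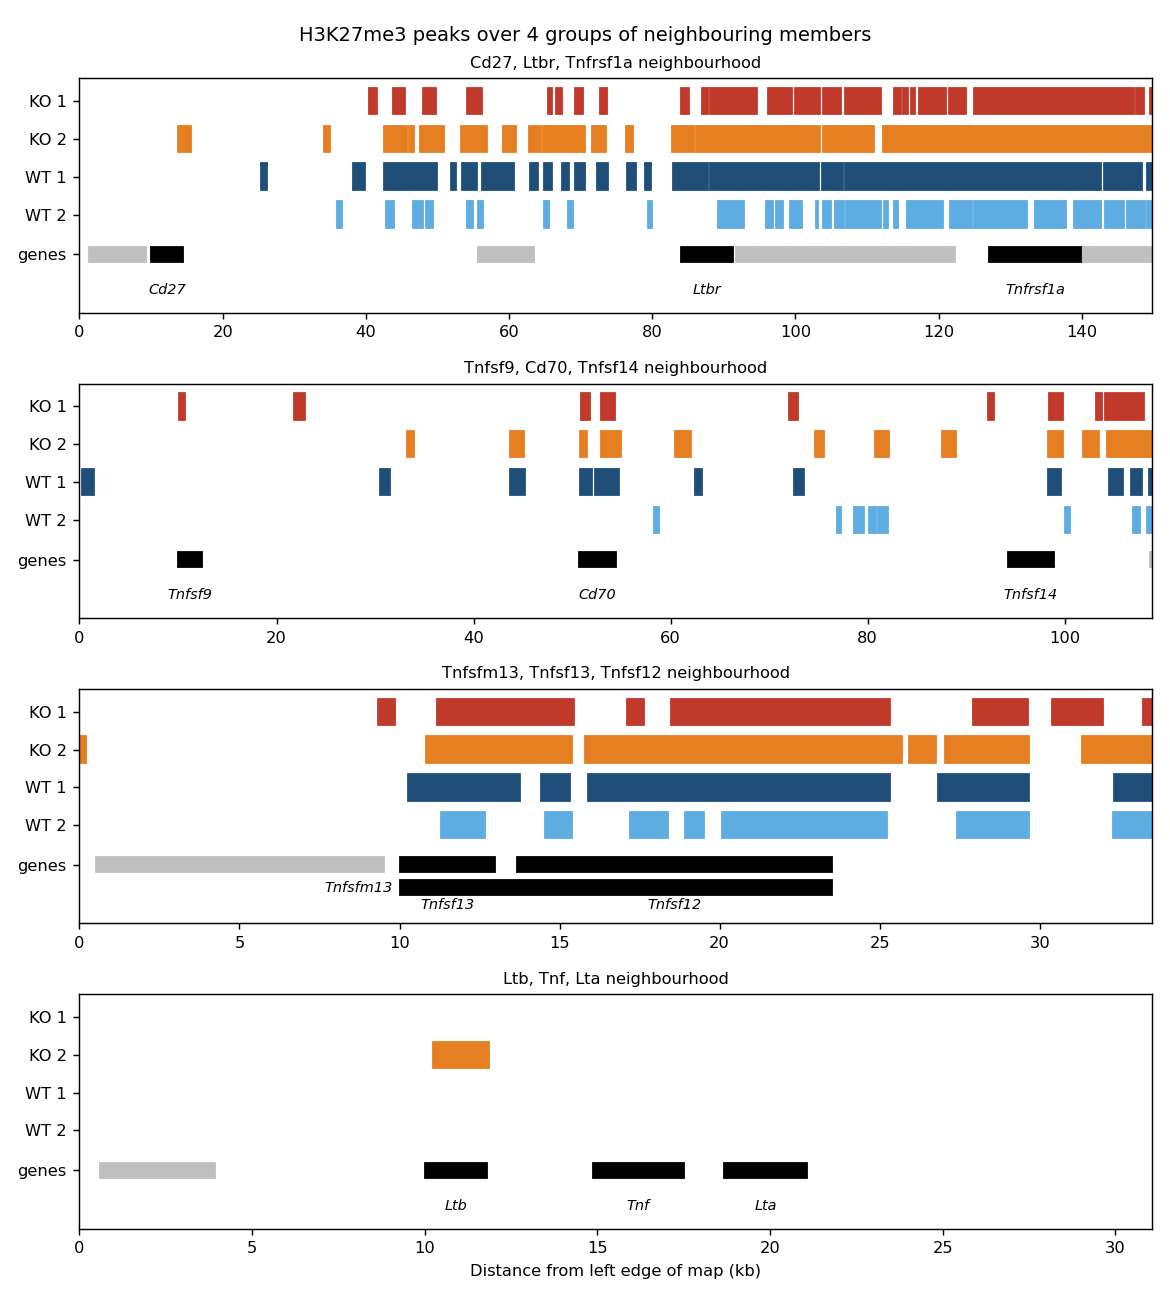
H3K27me3 peaks (coloured blocks, 1 row per library) over 4 groups of neighbouring members (black) and other genes (grey), with distance from the left edge of each map in kb. The blocks over Ltbr and Tnfrsf1a appear in every library, and the Ltb, Tnf and Lta map holds 1 peak, in KO2.

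The mark peaked close to the gene start. Over the 29 members with a strand, mean coverage of 500 bp bins was highest 250 bp into the gene in KO2 and WT1, at 71.6% and 62.5%. It was highest 750 bp in for KO1, at 52.0%, and 1250 bp in for WT2, at 50.3%. Over 17491 genes the highest bins reached 26.8%, 38.2%, 33.7% and 19.9% in KO1, KO2, WT1 and WT2. At 9750 bp downstream of the start, which is past the end of the shorter genes, the members had 25.4%, 37.6%, 25.0% and 17.2%. All genes had 10.3%, 16.5%, 14.3% and 7.18% there, so the members were also more covered away from the start. The peak with the highest signal at each covered member ranked, by median, above 88.1% to 92.3% of the peaks in its list. Many members met several peaks, and the highest of several ranks high by its choice. No such value was computed over all genes, so it does not set the family apart.

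**Figure D5:**
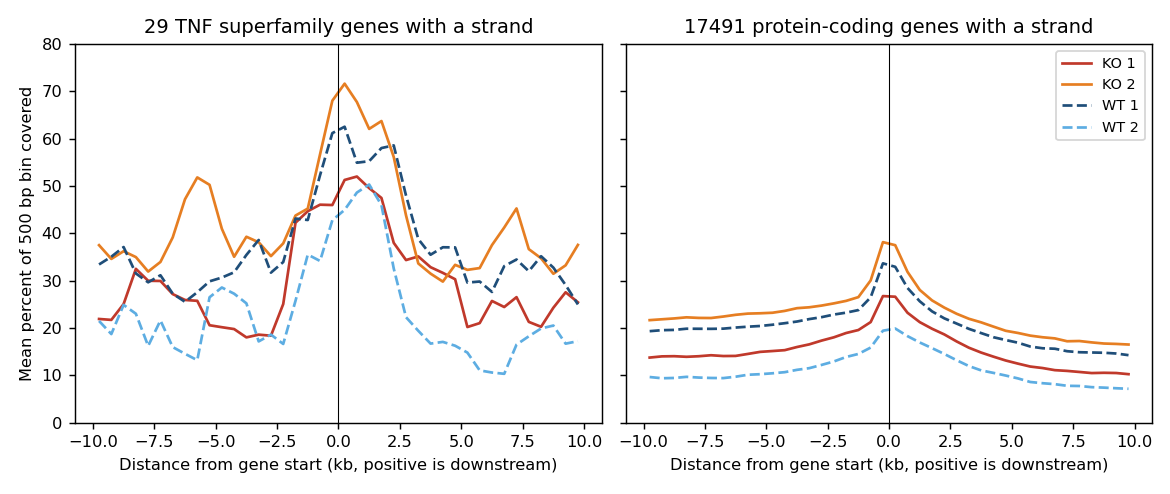
Mean percent of 500 bp bins covered by peaks (vertical axis) against distance from the gene start in kb (horizontal axis) for 29 members (left) and 17491 protein-coding genes (right), 1 line per library, solid for KO and dashed for WT. Both panels are highest near the start in every library, and the lines follow the order of covered length over all genes.

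No member differed between KO and WT by the test. In limma, with Benjamini-Hochberg adjustment over 13841 gene ends that had coverage, 0 of 31 members were higher and 0 lower in KO (smallest adjusted p = 0.895). At an unadjusted p under 0.05 there were also 0 members, against 3.54% of all gene ends higher and 0.477% lower. Over all gene ends 0% passed the adjusted test in either direction. The median difference of the members was 3.65 percentage points in favour of KO, against 6.61 over all gene ends. The members' median was 0 without KO2, without WT2 or at equal covered length, 6.16 without KO1, 7.99 without WT1 and 1.51 with covered length as a covariate. With 2 mice per genotype, a failed test is no evidence of equal marking.

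The other measures gave no member call either. At the other gene end, 0 of 21 members passed limma (smallest adjusted p = 0.954) and 0 had an unadjusted p under 0.05, against 2.68% higher and 0.346% lower over all. The median difference there was 2.86 points, against 6.63 over all, and with 1 library left out it ranged from 0 (without WT2) to 21.15 (without WT1), with 0.131 without KO2 and 10.3 without KO1. Over gene bodies, 0 of 32 members passed in limma, against 0.0145% of all bodies higher and 0% lower, and 0 had an unadjusted p under 0.05, against 1.56% higher and 0.341% lower. Their median difference was 2.71 points, against 1.53 over all bodies.

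No member was marked in both KO libraries and neither WT library, or the reverse, patterns held by 1.20% and 0.187% of all genes. Fasl came closest. Its KO values of 51.2% and 78.3% lay above its WT values of 26.45% and 0%, and the WT1 value passed the marking threshold narrowly. KO averaged 64.8% ± 19.2 and WT 13.2% ± 18.7 (SD, n = 2), a difference of 51.5 points (SE 16.2, limma adjusted p = 0.895). By RefSeq's strand this window lies at the far end of Fasl. At its start the gene had 0% and 100% in KO and 0% and 3.4% in WT, so there a single KO library held the mark. When every list was cut to the same covered length, the far-end window kept 21.4% in KO1 and 0% in the other 3 libraries, and the difference was 10.7 points.

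The genotypes did not overlap at Tnfsf13, Tnfsf14 and Tnfsf11 either. The lower KO value exceeded the higher WT value at 3 of 31 members with coverage, or 9.68%, against 14.4% of all gene ends, and below at 1 (3.23%, against 2.26%). Beside Fasl, Tnfsf13 had a difference of 33.1 points (SE 16.6), of which WT2, at 45.3%, made the larger part. Without that library it was 13.8 points, and without WT1 52.4. Tnfsf14 had 14.5 points (SE 9.09), 4.35 without WT2 and 24.6 without WT1. It had 37.7 points with the top 50% of peaks by signal and 42.1 with windows of 1000 bp to each side. At equal covered length Tnfsf14 had 37.2% and 0% in KO and 0% and 13.1% in WT. The genotypes then overlapped, with a difference of 12.0 points. Tnfsf11 was lower in both KO libraries, by -9.76 points (SE 7.18), by -2.15 without WT2, by -17.4 without WT1 and by -0.625 with windows of 1000 bp to each side. The limma adjusted p was 0.895 for each of these 3 genes.

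At the other end and over bodies, fewer members separated. Both KO values were higher at 1 of 21 other ends, that of Tnfsf12 (4.76%, against 12.7%), and at 1 of 32 bodies, that of Tnfrsf19 (3.13%, against 12.3%). None was lower in both, against 2.86% and 2.75%. The largest body differences in favour of KO were 43.3 points at Ltb (SE 37.7), 26.9 at Fasl (SE 19.3), 20.4 at Ltbr (SE 31.8), 19.3 at Tnfrsf23 (SE 15.2) and 17.0 at Cd70 (SE 38.9). The value at Ltb rested on KO2 alone. In favour of WT they were -10.2 points at Tnfrsf10b (SE 12.7), -9.41 at Tnfsf10 (SE 11.9), -5.79 at Tnfsf15 (SE 23.9), -2.22 at Tnfrsf14 (SE 2.11) and -1.80 at Tnfsf13 (SE 20.1). The limma adjusted p was 1 for all 10.

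Base by base, the loci of the 38 genes with 2000 bp on each side merged to 865 kb. Peaks of at least 1 library covered 32.4% of these bases, and peaks of all 4 covered 11.2%, against 13.9% and 3.28% over the loci of all genes. Bases covered in both KO and neither WT library made up 0.763%, or 6601 bp, against 0.479% over all genes. The reverse made up 0.0704%, or 609 bp, against 0.155%. The former lay at 11 genes, Tnfsf12, Tnfsf13 and Tnfsfm13 sharing theirs, with 1485 bp at Tnfrsf19, 1478 bp at Tnfrsf23, 990 bp at Fasl and 918 bp at Tnfrsf11a. Of the latter, 562 bp lay at Tnfrsf10b. Among bases covered in at least 1 library, those in both KO and neither WT were 6601 of 279938 bp for the members. Over all genes they were 5261510 of 152533275 bp, the larger share.

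Genes that act downstream of the receptors were described in the same way. Of 38 genes for TRAF adaptors, death domain adaptors and NF-κB subunits and regulators, 10, 14, 11 and 3 were marked in KO1, KO2, WT1 and WT2. These are 26.3%, 36.8%, 28.9% and 7.89%, against 33.5%, 46.3%, 40.8% and 26.3% of all genes, a difference that was not tested. None passed limma, since no gene end did. Of the 38, 3 were marked in every library, against 24.1% of all genes. These were Traf6, an adaptor of CD40 and Toll-like receptors, Fadd, the adaptor of death receptors, and Ripk3, a kinase of necroptosis. Ripk3 had 68.6%, 84.0%, 64.3% and 43.6%. No coverage at the gene end in any library was seen at 9 of the 38, Rel, Casp8, Birc2 and Traf5 among them, against 36.7% of all genes.

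Interleukin and interleukin receptor genes, 83 in all, were marked at 50.6%, 65.1%, 61.4% and 34.9% in KO1, KO2, WT1 and WT2. For 54 chemokine and chemokine receptor genes the shares were 40.7%, 61.1%, 51.9% and 31.5%. The difference between families was not tested. Of 9 TNF superfamily genes outside the naming rule, 1 was marked in all 4 libraries, against 24.1% of all genes. It was Tnfsf13b, which encodes the B cell survival factor BAFF.

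The share of members marked depended less on the library once covered length was made equal. With each list cut to about 101 Mb from its highest signal down, 18, 14, 17 and 17 members were marked in KO1, KO2, WT1 and WT2. The same shares over all genes were then 28.2%, 27.8%, 27.5% and 26.3%. Of the 16 members marked in all 4 libraries, 14 remained so, and Tnfsf8 and Tnfsf15 did not. These are 36.8% of members, against 19.9% of all genes marked in all 4 of the equalised lists.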

How the data were processed

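H3K27me3 was mapped by CUT&Tag in 4 libraries, 2 KO and 2 WT. The build was mm10, and the tools named are SEACR, deepTools, SAMtools 1.11, Bowtie2 2.4.2 and Trim Galore 0.6.6, per the submitters' processing notes. Their settings were not given in the sources used here. The authors deposited 1 peak list per library, with no pooling of libraries, with the total and the highest signal (coverage) of each peak on a scale that is not stated. Only positions were compared between libraries. Signal ranked peaks within a list. Without a known depth no counting interval can be given.

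Covered shares were computed in Python 3.11.15 with numpy 2.4.6, pandas 2.3.3 and scipy 1.17.1 from RefSeq genes of GRCm38.p6, and drawn with matplotlib 3.10.9. The plan was to use the window at the gene start if strand was in hand for 80% of genes. It was for 79.9%, so the planned substitute was used, the end with the higher mean over all libraries. The test between genotypes was limma 3.58.1 in R 4.3.3, using lmFit and eBayes with no trend. It draws the spread of each gene towards a shared value, with Benjamini-Hochberg adjustment at 0.05 over all genes with any coverage. The test was checked on simulated data. How well it detects differences in covered shares like these, many of them bare or fully covered, was not tested. The p-values measure the spread between 2 mice per genotype.

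Genes and lists were chosen with earlier results of these data known. Named genes were those with a known role in lymphocytes, the 8 whose lowest share was highest, neighbours within 100 kb, those whose genotypes separate and the 5 largest body differences each way. Role groups, pairs and other genes singled out for a high or low value were chosen outside that rule. The alternatives were windows of 1000 and 5000 bp, marking at 10% and 50%, the top 50% of peaks by signal, equal covered length, covered length as a covariate, no filter, eBayes with trend, gene bodies and each library left out. The start by strand was added after the data were seen.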

Additional observations from a re-analysis of the deposited data

How the results depend on the processing

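No member passed limma at the gene end, the other end or the body under any alternative run. Where a library was left out, its genotype had 1 library, assumed to vary like the other genotype, so those fits say little. The number of members marked in both KO and neither WT was 0, and became 1 with the top 50% of peaks by signal (Tnfsf14), 1 with 1000 bp and 1 with 5000 bp windows and 1 with marking at 50% (Fasl in each). The same patterns held 1.03%, 1.71%, 0.740% and 0.740% of all genes, and 1 member is 2.63%. With each library left out in turn it ranged from 0 to 4, the 4 without WT replicate 1 being Fasl, Tnfrsf9, Cd70 and Tnfsf14 (10.5%, against 7.70% of all genes). Without KO replicate 1 it was 2, Cd27 and Ltb (5.26%, against 8.55%). The reverse count ranged from 0 to 1, with Tnfrsf23 without KO replicate 2 (1.45% of all genes) and Tnfrsf1b without WT replicate 2 (2.85%). At the start of Tnfrsf23 the pattern did not hold, with 29.2% in KO replicate 1 and 18.5% in WT replicate 2. At equal covered length KO replicate 2 had 14 marked members in place of 25, and by gene body WT replicate 2 had 10 in place of 17. The remaining counts of marked members per library lay within 1.5 times their main value. The other unchanged counts, of limma calls and of the 2 genotype patterns, were 0 in both settings, so a ratio has no meaning there.

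Over bodies, equal covered length turned Fasl to -0.0833 and Tnfrsf23 to -0.715 points, and the members' median to -0.0833. Leaving out libraries, the median body difference ranged from -1.70 to 11.0 points, Ltbr from -13.7 to 54.6 and Cd70 from -27.8 to 61.8. Tnfrsf10b ranged from -24.3 to 3.95, Tnfsf10 from -21.5 to 2.72, Tnfsf15 from -32.2 to 20.6 and Tnfsf13 from -24.1 to 20.5. With covered length as a covariate the median at the other end was -0.607. The cause was not tested. Using the end with the higher mean was planned as an alternative and became the main window. No paired analysis was possible because the labels give no replicate numbers. Unknown depth and 2 mice per genotype limit what could be detected.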
